A study of Gossypium arboreum with 12 samples.

Results

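The change from 0 to 10 days post anthesis (dpa) was followed in ovules of the fuzzy-lintless (*Fl*) line of the diploid cotton *Gossypium arboreum*, the mutant ANOI 1960. Its members are 6 of the 12 arrays of the series, 3 titled 0 dpa and 3 titled 10 dpa, and every probe set made against a transcript was compared, 21791 in all. The other 6 arrays hold ovules of the fuzzy-linted (*FL*) line at the same stages and are used to show where the lintless ovules differ. They also enter the estimate of spread behind the p-values and the median that each level is relative to. The lines differ in seed fibre, with more of the short fuzz and no long lint in *Fl*. The *Fl* line came from crossing the lines with the *Fl* parent as the recurrent parent, and the study states that the lines are not perfectly isogenic. Plants were grown in the field, and each array is a separate biological replicate of whole ovules.

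A cotton fibre is a single cell of the ovule epidermis. Fibre cells bulge out of the epidermis around anthesis and elongate over the following weeks, while the rest of the ovule grows, differentiates its seed coats and nourishes the embryo. Elongation needs a primary wall that is loosened and rebuilt, turgor, a supply of sugars and nitrogen, and a cytoskeleton that steers wall synthesis. In an ovule without lint, transcripts that change from 0 to 10 dpa can belong to any of its tissues. Whole ovules were measured, so fewer cells of a type and less RNA per cell cannot be told apart.

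Each transcript is read by a group of short probes, a probe set, whose level is given on the log2 scale relative to its median over the 12 arrays. This centring leaves differences between groups as they are, but no absolute brightness can be read from the values. Within each stage the *Fl* arrays correlated at 0.836 to 0.903 over all probe sets. The correlation between stages was -0.645 to -0.569, and correlations over probe sets are not over independent replicates. Centring each probe set pushes arrays of contrasting groups toward negative correlations, so the sign does not show opposite profiles. The array medians of the 6 arrays lay between -0.00794 and 0.0179. The SD over probe sets was 0.347 to 0.364 on these arrays and 0.351 to 0.357 on the *FL* arrays of 0 dpa. It was wider, at 0.489 to 0.501, on the *FL* arrays of 10 dpa.

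Some control signals moved with the stage in *Fl* ovules. The mean of the 27 hybridization control probe sets, bacterial transcripts spiked into each hybridization, was -0.239 ± 0.029 (SD, n = 3) at 0 dpa and -0.0573 ± 0.045 (SD, n = 3) at 10 dpa. The difference was 0.18 (two-sided exact permutation test, p = 0.10, no smaller p being possible with 3 arrays a stage). Poly-A controls, which are added before labelling, were 0.45 higher at 10 dpa (exact permutation test, p = 0.10). The ratio of 3′ to 5′ probes, a measure of RNA integrity and labelling, differed between the stages by log2 0.74 for the *G. hirsutum* actin and 1.0 for the *G. raimondii* actin, and by 0.12 and -0.16 for the ubiquitin of the same species. Apart from the centring on hybridization controls described with the counts, the part of these signals in the results was not tested.

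From 0 to 10 dpa more transcripts rose than fell in the lintless ovules at the thresholds of the study, a 3-fold change or larger at an adjusted p no higher than 0.01 (a DET). Of 21791 transcripts 399 rose (1.83%) and 235 fell (1.08%), 634 DETs in all (2.91%), by limma with Benjamini-Hochberg adjustment over all transcripts. At any fold the balance turned, with 3030 higher (13.9%) and 3912 lower (18.0%) at 10 dpa, and 79.6% of these 6942 had changed by less than 2-fold in either direction. Rises outnumbered falls at each fold from 3 to 100. Changes of at least 8-fold numbered 108 rises and 45 falls, and those of at least 32-fold 20 rises and 3 falls. The median change of the rises was 2.26 and that of the falls -2.16 on the log2 scale, against -0.008 over all transcripts. In every DET the arrays of the stages did not overlap, which held for 52.9% of all transcripts, 23.8% with 10 dpa above 0 dpa and 29.2% below.

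**Figure D1:**
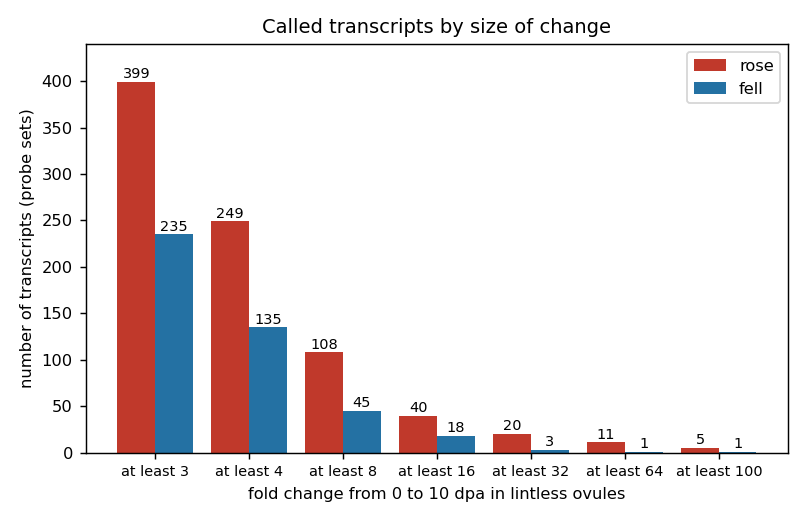
Number of transcripts (y axis, probe sets) that rose (red) or fell (blue) in lintless ovules from 0 to 10 dpa by at least the fold given on the x axis, with adjusted p-values up to 0.01. Rises outnumbered falls at every step, by 399 to 235 at 3-fold and 20 to 3 at 32-fold.

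The split by direction depended on the scaling of the arrays. Centring each array on its hybridization controls moved the median change of all transcripts to -0.19 and gave 318 rises and 324 falls, 49.5% rises in place of 62.9%. At any fold it gave 1606 higher and 4932 lower. Without the probe sets that related genes can share, 123 rose and 124 fell. A further quantile normalization gave 408 rises and 362 falls, 53.0% rises. The transcripts themselves changed less, since 553 of the 634 DETs were also called after centring on the controls and 629 after quantile normalization. The directions of single transcripts below are relative to the centre of each array.

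The largest rise and the largest fall of all belong to probe sets that the study's tables do not name. Probe set Ghi.5750.1.S1_s_at had levels of -4.29, -4.40 and -4.21 at 0 dpa and of 4.29, 4.21 and 4.25 at 10 dpa. The groups were far apart and each was tight, for a rise of 8.55 on the log2 scale (375-fold, standard error 0.20, adjusted p = 1.3e-11, limma). The next unnamed rise, Ghi.5748.1.S1_s_at, was 7.46, below the rises of 7.99 and 7.67 on named probe sets given below. Among falls, Ghi.8159.1.S1_s_at went from 3.80, 3.83 and 3.69 to -3.35, -3.29 and -2.78, a change of -6.91 (120-fold lower, standard error 0.24, adjusted p = 4e-10). Ghi.5751.1.S1_x_at fell by 5.38 on the log2 scale. These 4 changed the same way in *FL* ovules, by 9.71, 8.10, -5.49 and -4.71.

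Rises were more frequent among probe sets that can pick up related members of a gene family. A suffix letter s, x or a in the identifier marks 10366 such probe sets, of which 276 rose (2.66%) and 111 fell (1.07%). Of the other 11425 probe sets 123 rose (1.08%) and 124 fell (1.09%). The prefix of an identifier names the species whose sequences it was made from. Of 15584 probe sets from *G. hirsutum* 356 rose (2.28%) and 207 fell (1.33%), and of 6071 from *G. raimondii* 28 rose (0.461%) and 26 fell (0.428%). The array holds 67 probe sets from *G. arboreum* itself, 8 of which rose. By the cluster number in the identifier, the 399 rises came from 369 sequence clusters and the 235 falls from 230.

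Most of the rises were shared with linted ovules and most of the falls were not called there. The same rise was called in *FL* for 329 of the 399 transcripts (82.5%), which is 51.3% of the 641 that rose in *FL* (2.94% of all transcripts, of 3.87% called there in either direction). The other 70 were not called in *FL*, where all of them had a change above 0. Of the 235 falls 96 were also called in *FL* (40.9%), 47.5% of the 202 that fell there (0.927% of all transcripts). A further 135 were not called, with an *FL* change below 0 in 75, and 4 rose. The median *FL* change was 2.44 for the transcripts that rose in *Fl* and -1.27 for those that fell. Over all transcripts the changes of the lines correlated at 0.741 (Pearson, 21791 probe sets), as a description across probe sets, with no array in common.

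A call in only 1 line does not show that the lines differ, which the interaction tests as the *Fl* change minus the *FL* change. Over all transcripts it was called at 3-fold for 355 (1.63%), 335 negative (1.54%) and 20 positive (0.0918%). The *FL* arrays of 10 dpa, with their wider spread, enter this contrast. Its positive count after a further quantile normalization is given in the closing section. Among the 399 rises it was negative in 25 and positive in 10, and among the 235 falls negative in 93 (39.6%) and positive in none. At any fold it was positive for 5.8% and negative for 6.57% of all transcripts. Centring on the hybridization controls left 72 positive and 5761 negative at any fold, and 9 and 591 at 3-fold. With the deposited scaling it was not called at any fold for 243 of the rises (60.9%) and 82 of the falls (34.9%). Of the 135 falls not called in *FL*, 89 had a negative interaction called at 3-fold (65.9%), and of the 70 rises not called there 7 had an interaction of that size in either direction (10.0%).

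**Figure D2:**
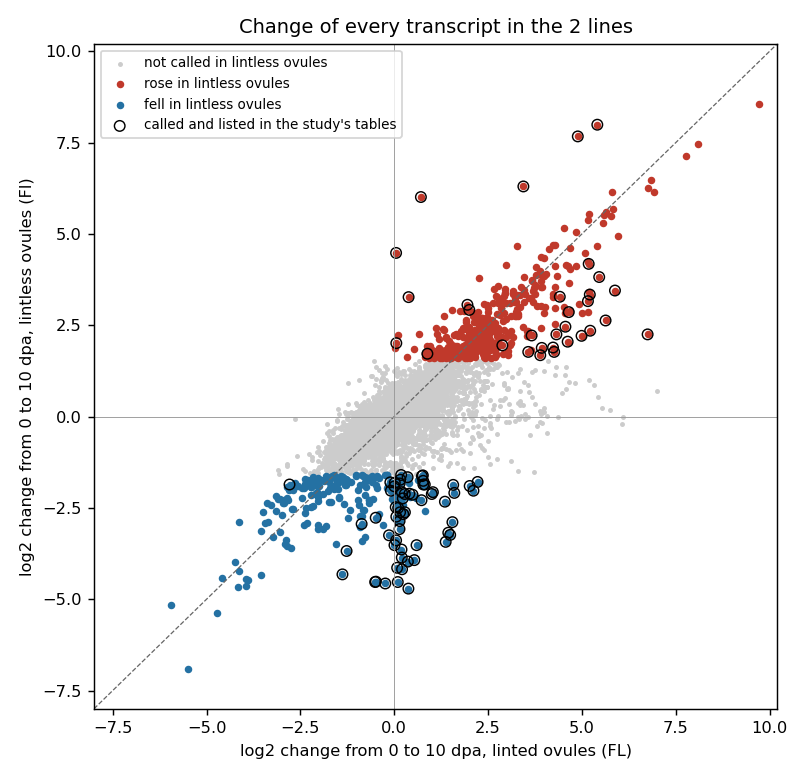
Log2 change from 0 to 10 dpa of 21791 transcripts in linted (x axis) and lintless (y axis) ovules, each point a probe set, with rises in lintless ovules in red, falls in blue, uncalled transcripts in grey, equal change on the dashed line, and black circles around the 90 DETs that the study's tables list. Most red points lie along the dashed line, a column of circled blue points stands near an *FL* change of 0, and grey points reach *FL* changes of 7.01 with little change in lintless ovules.

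Names come from the study's tables and are those of *Arabidopsis* homologs, so several probe sets can share a name. These tables list 270 of the probe sets, 234 of them with a homolog, and 90 of the 634 DETs, 31 that rose and 59 that fell. The tables list transcripts that differed between the lines at 0 or 10 dpa on these same arrays. Their members are therefore no sample of all the changes in *Fl*, and counts within them are not independent evidence. All 90 had an interaction called at any fold, against 219 of the 544 DETs outside the tables (40.3%). None of these 90 therefore changed alike in both lines, which being listed for a difference between the lines favours. Listed transcripts that were not DETs in *Fl* are not covered by this count. Of the 31 rises 26 also rose in *FL*, with a negative interaction in 21 and a positive one in 10. Of the 59 falls 54 were not called in *FL*, and the interaction was negative in 58. The median level of the 59 falls was 1.67 in *Fl* at 0 dpa and -0.946 at 10 dpa, between which the *FL* medians lay (-0.13 and 0.133).

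Cell wall transcripts led the named rises. Xyloglucan endotransglucosylase/hydrolase 7 (AT4G37800.1), of a family that cuts and rejoins the xyloglucan chains between cellulose microfibrils, was measured by 3 probe sets. On the first its levels were -2.84, -2.67 and -2.44 at 0 dpa and 5.37, 5.34 and 5.31 at 10 dpa. The *Fl* arrays of the stages lay far apart, a rise of 7.99 (254-fold, standard error 0.09, adjusted p = 1.1e-13, limma). On the other probe sets it rose by 7.67 and 6.30. In *FL* the rises were 5.41, 4.89 and 3.44, and the interaction was positive on all 3 (2.58, 2.78 and 2.86). All 3 carry the suffix letter s.

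FASCICLIN-like arabinogalactan 7 (AT2G04780.2), a cell surface glycoprotein whose family is known from cell adhesion and from walls, had levels of -0.20, -0.04 and -0.21 at 0 dpa. At 10 dpa they were 5.95, 5.85 and 5.79. This rise of 6.01 (64.6-fold, standard error 0.11, adjusted p = 2.5e-12, limma) had no counterpart of that size in *FL*, where the change was 0.71 and not called. Its interaction of 5.30 (adjusted p = 6.8e-10) was the largest positive value among the transcripts in the tables. A transcript with no homolog behaved alike, rising by 4.48 in *Fl* against 0.05 in *FL*.

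Of the 16 transcripts the tables place in cell wall metabolism 8 rose and 1 fell in *Fl*, against 1.83% and 1.08% of all transcripts. The median change was 1.57, against -0.008 over all transcripts. The rises include the XTH 7 probe sets given above. Of the 16, 14 were listed for a difference between the lines at 10 dpa, on arrays that this comparison ends with. In *FL* 12 of the 16 rose, with a median of 3.16. Beta-xylosidase 1 (AT5G49360.1), which trims xylose and arabinose side chains, went from -1.38, -1.22 and -1.15 to 1.15, 1.24 and 1.24, a rise of 2.46 against 4.56 in *FL*. A LysM domain protein (AT5G62150.1) rose by 2.25, XTH 4 (AT2G06850.1) by 1.95 and XTH 5 (AT5G13870.1) by 1.77. Unknown seed protein like 1 (AT1G49320.1), placed in the same class, fell by 3.68 on the log2 scale. TRICHOME BIREFRINGENCE-LIKE 38 (AT1G29050.1), of a family that acetylates wall polysaccharides, rose by 1.77 and is not in this class.

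All 3 transcripts listed as beta-galactosidases, enzymes that remove galactose from wall polysaccharides, rose in both lines. Over all transcripts 1.83% rose in *Fl* and 2.94% in *FL*. The glycosyl hydrolase family 35 protein (AT2G16730.1) had levels of -2.15, -2.44 and -2.41 at 0 dpa and 1.61, 1.41 and 1.44 at 10 dpa, a rise of 3.82 (14.1-fold, standard error 0.12, adjusted p = 1.5e-10, limma). Beta-galactosidase 2 (AT3G52840.1) rose by 3.16 and beta galactosidase 1 (AT3G13750.1) by 2.35. In *FL* the rises were 5.46, 5.16 and 5.22, and the interaction was negative for each (-1.64 for the first and -2.87 for the last).

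**Figure D3:**
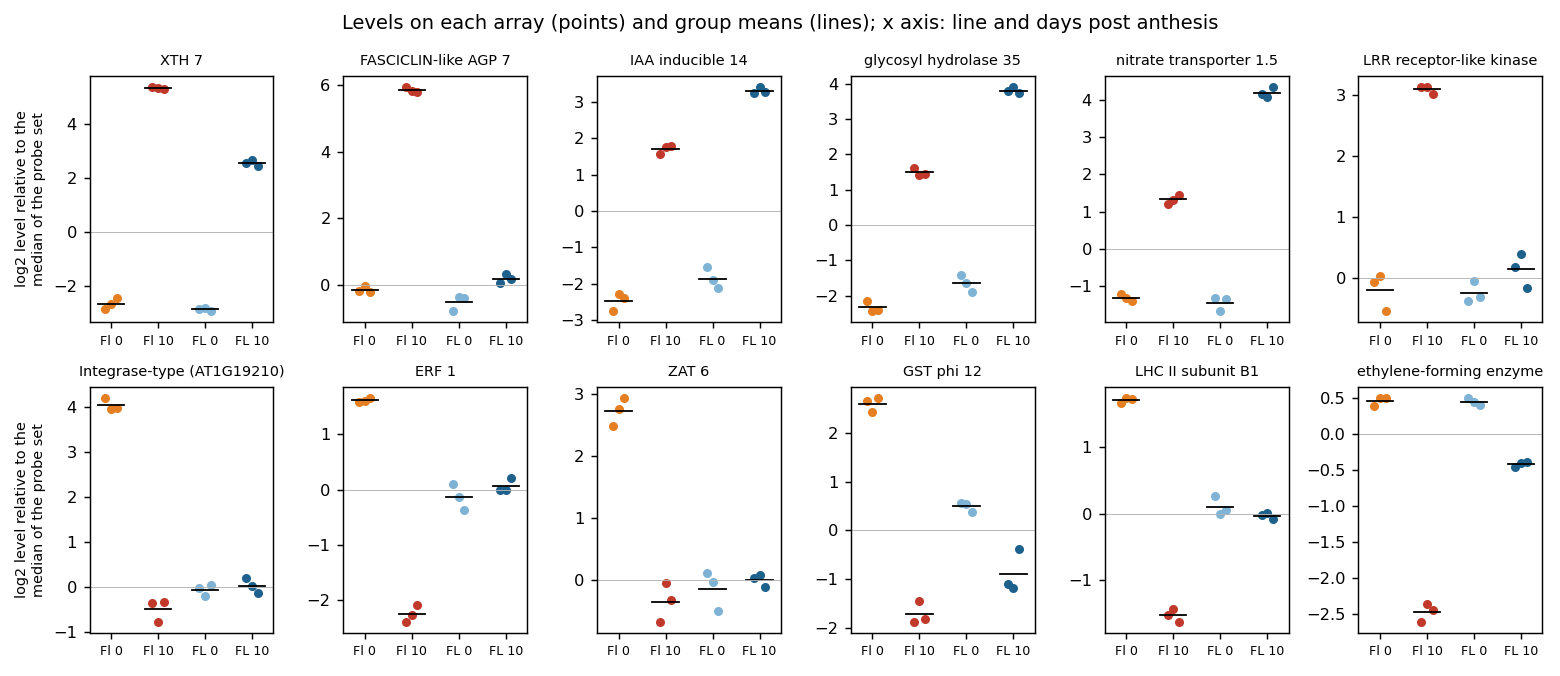
Levels on each array (points, log2 relative to the median of the probe set) and group means (lines) of 6 named transcripts that rose (upper row) and 6 that fell (lower row) in lintless ovules (Fl) from 0 to 10 dpa, with the linted ovules (FL) beside them. The *Fl* points of the stages do not overlap in any panel, FASCICLIN-like arabinogalactan 7 is high on the *Fl* arrays of 10 dpa alone, and the Integrase-type transcript is high on the *Fl* arrays of 0 dpa alone. XTH, xyloglucan endotransglucosylase/hydrolase; AGP, arabinogalactan protein; IAA, indole-3-acetic acid; LRR, leucine-rich repeat; ERF, ethylene responsive element binding factor; ZAT, zinc finger of *Arabidopsis thaliana*; GST, glutathione S-transferase; LHC, light-harvesting complex.

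The auxin response repressor indole-3-acetic acid inducible 14 (AT4G14550.1) rose in both lines. Levels of -2.75, -2.28 and -2.40 at 0 dpa went up to 1.55, 1.75 and 1.79 at 10 dpa, a rise of 4.18 (18.1-fold, standard error 0.15, adjusted p = 3.9e-10, limma). It rose by 5.18 in *FL* (interaction adjusted p = 0.0048). A second probe set with the same name changed by -0.01 in *Fl* and rose by 3.31 in *FL*, so the name covers transcripts that behaved differently.

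Of 11 transcripts of nitrogen and amino acid metabolism 2 rose and none fell in *Fl*, against 1.83% and 1.08% of all transcripts. In *FL* 9 of the 11 rose. Glutamate decarboxylase 4 (AT2G02010.1), which makes gamma-aminobutyric acid, rose by 3.28 from levels of -1.70, -2.26 and -1.63 to 1.16, 1.53 and 1.57. The nitrogen-storing enzyme glutamine-dependent asparagine synthase 1 (AT3G47340.1) was measured by 5 probe sets. It rose on 1 of them by 2.25 in *Fl* against 6.75 in *FL*, and on the others it changed by 0.38 to 1.35, under 3-fold. Nitrate transporter 1.5 (AT1G32450.1), which loads nitrate into the xylem in *Arabidopsis* roots, went from -1.22, -1.30 and -1.38 to 1.22, 1.31 and 1.46. It rose 6.2-fold in *Fl* (log2 2.63, adjusted p = 1.3e-09, limma) and by 5.63 on the log2 scale in *FL*.

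Further named rises, each larger in *FL*, came from several lists. Xylem serine peptidase 1 (AT4G00230.1), a subtilisin-like protease, rose by 3.45 and a further subtilisin-like endopeptidase (AT5G67090.1) by 1.88. MLP-like protein 28 (AT1G70830.3), of the major latex protein family, rose by 3.34, and MLP-like protein 423 (AT1G24020.2), a weaker match than the cutoff of the study's methods, by 1.89. A second probe set of MLP-like protein 423 changed by 0.89 and was not called. Polygalacturonase inhibiting protein 1 (AT5G06860.1), which inhibits pectin-degrading enzymes of fungi, rose by 2.21 and bifunctional nuclease I (AT1G11190.1) by 2.05. A protein kinase (AT5G55560.1) rose by 2.86. All 7 rose more in *FL*, by 3.94 to 5.88.

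A small set of the listed transcripts rose more in lintless than in linted ovules. A receptor-like kinase with leucine-rich repeats (AT5G01890.1) had levels of -0.07, 0.04 and -0.53 at 0 dpa and 3.12, 3.12 and 3.01 at 10 dpa, a rise of 3.27 (9.7-fold, standard error 0.16, adjusted p = 7.5e-09, limma) against a change of 0.38 in *FL*. A phosphoenolpyruvate/phosphate translocator (AT3G01550.1), which carries phosphoenolpyruvate into plastids, rose by 2.01 against 0.05. A bifunctional inhibitor/lipid-transfer protein (AT2G45180.1) rose on a pair of probe sets by 3.06 and 2.92, and by less than 4-fold on each in *FL*. Allene oxide synthase (AT5G42650.1), an enzyme of jasmonic acid synthesis and a weak match, rose by 1.72 and was under 3-fold after quantile normalization or centring on the controls. With XTH 7, FASCICLIN-like arabinogalactan 7 and the transcript with no homolog, these make up the 10 named rises with a positive interaction. All but allene oxide synthase were listed as higher in *Fl* at 10 dpa, and that enzyme as lower in *Fl* at 0 dpa. Either choice favours a positive interaction, so the set is a description. Among all 399 rises the interaction was positive at any fold in 67 (16.8%).

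The named falls were led by transcription factors of the AP2-EREBP family, which holds the ethylene response factors, and by proteins of unknown function. Of 13 AP2-EREBP transcripts listed 8 fell and none rose in *Fl*, with a median change of -1.81, against 1.08% of all transcripts that fell. In *FL* 3 of the 13 rose and none fell, with a median of 0.17. All 13 had a negative interaction called at 3-fold, against 1.54% of all transcripts. Of the 13, 7 were listed because they were higher in *Fl* at 0 dpa, on the arrays that this comparison starts from. The other 6 were listed as lower in *Fl* at the later stage, on the arrays that this comparison ends with. Either choice favours a negative interaction, so its call in all 13 is a description.

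A member named Integrase-type DNA-binding (AT1G19210.1) fell on 3 probe sets. On the first its levels were 4.21, 3.96 and 3.97 at 0 dpa and -0.35, -0.77 and -0.32 at 10 dpa, a change of -4.53 (23.1-fold lower, standard error 0.13, adjusted p = 6.2e-11, limma), and the *FL* change was 0.09. On the others it fell by 4.53 and 1.91 on the log2 scale. A further Integrase-type member (AT5G51190.1) went from 3.02, 2.99 and 3.05 to -1.25, -1.15 and -0.98, a change of -4.14. Ethylene responsive element binding factor 1 (AT4G17500.1) changed by -3.86, from 1.58, 1.61 and 1.66 to -2.38, -2.27 and -2.08. Factor 5 (AT5G47230.1) changed by -2.50 on one probe set and by -1.52, under 3-fold, on another, and factor 4 (AT3G15210.1), a repressor, by -1.81. The *FL* changes of these lay between -0.49 and 0.20. The Integrase-type transcript AT5G61590.1 changed by -1.61, and fell short of the 3-fold threshold without lintless 10 dpa replicate 1 (-1.37) or lintless 0 dpa replicate 3 (-1.58).

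Other members of the family were not called. Ethylene-responsive element binding protein (AT3G16770.1) changed by 0.01 on each of a pair of probe sets in *Fl*, and rose by 3.39 and 2.76 in *FL*. Factor 2 (AT5G47220.1) changed by 0.31 and related to ABI3/VP1 1 (AT1G13260.1) by -1.16.

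Of 4 C2H2 zinc finger transcripts 2 fell, of 5 NAC transcripts 1 fell, and of 7 listed under WRKY 1 fell and 1 rose, against 1.08% of all transcripts that fell and 1.83% that rose. Of the 4 C2H2 members 3 were listed for a difference between the lines at 0 dpa. Zinc finger of *Arabidopsis thaliana* 6 (AT5G04340.1), a regulator of stress responses, had levels of 2.49, 2.77 and 2.94 at 0 dpa and -0.67, -0.05 and -0.32 at 10 dpa. It fell by 3.08 on the log2 scale (standard error 0.18, adjusted p = 4.1e-08, limma), the largest standard error among the transcription factors that fell. A C2H2-type member (AT2G28710.1) changed by -2.06, and salt tolerance zinc finger (AT1G27730.1) by 0.08 and 0.29. The defence regulator WRKY DNA-binding protein 40 (AT1G80840.1) went from 2.20, 2.30 and 1.82 to -0.27, 0.15 and -0.29, a change of -2.24. The riser of that list, which also holds kinases, is the protein kinase AT5G55560.1 given above. The NAC transcript AT1G01720.1 changed by -1.87, and the other 4 by -0.67 to 0.92, while 4 of the 5 rose in *FL* at 2.49 to 4.82.

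Ethylene synthesis and signalling held 8 falls and no rise among 15 transcripts, with a median of -1.61, against 1.08% of all transcripts that fell. Of the 8 falls 5 are AP2-EREBP members already given, and 5 of the 15 transcripts were listed for a difference between the lines at 0 dpa. Ethylene-forming enzyme (AT1G05010.1), the oxidase of the last step of ethylene synthesis, had levels of 0.39, 0.50 and 0.49 at 0 dpa and -2.61, -2.37 and -2.45 at 10 dpa. It fell by 2.94 (7.7-fold lower, standard error 0.07, adjusted p = 1.4e-11, limma) against a change of -0.87 in *FL*. On a pair of further probe sets of the same name the *Fl* change was -1.51 and 0.08 and the *FL* rise 3.71 and 3.90. A histidine kinase that senses ethylene (AT3G23150.1) changed by -2.11, from -0.02, 0.02 and 0.18 to -2.07, -2.0 and -2.08. The enzyme of the step before, ACC synthase 6 (AT4G11280.1), changed by 0.97, under 3-fold. An adenine nucleotide alpha hydrolase-like protein (AT3G62550.1) of the list changed by -1.66.

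Falls were also found in the protein degradation and signalling lists, where 4 and 3 members were listed for a difference between the lines at 0 dpa. Over all transcripts 1.08% fell and 1.83% rose. A RING finger protein (AT5G59550.1) went from 2.84, 2.70 and 2.97 to -0.35, -0.44 and -0.25, a change of -3.18 (standard error 0.14, adjusted p = 2.7e-09, limma). Of the 10 transcripts under protein degradation 4 fell and 1 rose, among them an F-box protein (AT4G21510.1, -2.07), brassinosteroid-responsive RING-H2 (AT3G61460.1, -1.86) and TOXICOS EN LEVADURA 2 (AT3G16720.1, -1.60), the last within 0.1 of the fold threshold. Of 8 signalling transcripts 3 fell and 1 rose. A calcium-binding EF-hand protein (AT4G27280.1) changed by -2.33, a calcium ATPase (AT3G63380.1), which pumps calcium out of the cytosol, by -2.12, and a RIN4 family protein (AT5G55850.3), named for an immune regulator, by -2.48. BON association protein 2 (AT2G45760.1) changed by -2.03 and the Hs1pro-1 protein (AT3G55840.1) by -3.93, while a second probe set of that name changed by 0.23 and rose by 3.98 in *FL*.

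Glutathione S-transferase phi 12 (AT5G17220.1), which in *Arabidopsis* brings anthocyanins to the vacuole, was among the largest named falls. Its levels were 2.65, 2.43 and 2.72 at 0 dpa and -1.88, -1.46 and -1.83 at 10 dpa, a change of -4.32 on the log2 scale (standard error 0.19, adjusted p = 2.4e-09, limma) against -1.38 in *FL*. Glutathione S-transferase TAU 8 (AT3G09270.1) changed by -3.43 in *Fl* and by 1.37 in *FL*. Of 8 transcripts of secondary metabolism, all listed for a difference between the lines at 10 dpa, 2 fell, against 1.08% of all transcripts. Terpene synthase 21 (AT5G23960.2), which makes sesquiterpenes, went from 1.90, 2.22 and 2.08 to -1.40, -1.63 and -1.33, a change of -3.52, and a pyridoxal phosphate-dependent transferase (AT2G20340.1) changed by -2.86.

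Falls among chaperone, transport and wall peroxidase transcripts stood beside members that kept within 3-fold. A DnaJ-domain chaperone (AT2G17880.1) changed by -3.24 on one probe set and -1.26 on another. Zinc induced facilitator 1 (AT5G13740.1), a transporter of the vacuole membrane, changed by -2.89 and -1.42 on a pair of probe sets, and pleiotropic drug resistance 7 (AT1G15210.1), an ATP-driven exporter, by -2.12. A class III peroxidase (AT5G05340.1) changed by -2.62 on one probe set and -0.51 on another, where *FL* rose by 3.62. Of the 13 transport transcripts 2 rose and 2 fell, against 1.83% and 1.08% of all transcripts.

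Photosynthesis transcripts made in the nucleus fell and those of the plastid genome did not pass the threshold. The light-harvesting complex II subunit B1 (AT2G34430.1) had levels of 1.67, 1.75 and 1.73 at 0 dpa and -1.53, -1.45 and -1.63 at 10 dpa, a change of -3.25 (9.5-fold lower, standard error 0.08, adjusted p = 1.5e-11, limma). The Rubisco small subunit (AT5G38430.1) changed by -2.62. Photosynthetic electron transfer B (ATCG00720.1) changed by -0.57 (adjusted p = 0.049) and ATP synthase subunit beta (ATCG00480.1) by -0.24 (adjusted p = 0.40). The mean level of these 4 markers of green tissue was 1.26 to 1.43 on the *Fl* arrays of 0 dpa and -0.462 to -0.283 at 10 dpa, with *FL* at -0.404 to -0.0901 and -0.796 to -0.468. Of the 4, 3 were listed for a difference between the lines at 0 dpa, and the part of green tissue in the other falls was not tested.

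Of 22 transcripts for proteins of unknown function 10 fell and none rose, against 1.08% of all transcripts that fell, and 10 of the 22 were listed for a difference between the lines at 0 dpa. A pair of probe sets for AT4G29780.1 changed by -4.71 and -4.18, the first from 3.58, 3.58 and 3.60 to -0.97, -1.15 and -1.25. A pair for AT5G12010.1 changed by -3.52 and -3.39, and AT3G11760.1 by -3.64. AT2G27830.1 changed by -2.14, AT1G32920.1, a weak match, by -1.86, and AT3G57450.1 by -1.80. ROTUNDIFOLIA like 12 (AT4G13395.1), of a small-peptide family known from *Arabidopsis* leaf shape and a weak match here, changed by -4.53 (standard error 0.21, adjusted p = 4.6e-09, limma). A polynucleotidyl transferase of the ribonuclease H-like fold (AT5G22250.1) changed by -2.67 and a C2 domain protein (AT2G25460.1) by -2.74. Among the named falls in *Fl* a single transcript fell more in *FL*, the unknown protein AT1G64080.1, at -2.79 against -1.86.

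The named falls were divided by the table that lists them. Among the 46 transcripts listed as higher in *Fl* at 0 dpa, 36 fell and none rose, against 1.08% of all transcripts that fell. Being chosen as high on the arrays that this comparison starts from favours falls among the 46. These 36 had a median level of 2.02 in *Fl* at 0 dpa and -0.422 at 10 dpa, near the *FL* medians of -0.123 and 0.038. The other 23 named falls started near the *FL* level, at a median of 0.339 in *Fl* against -0.137 in *FL*, and ended below it, at -1.76 against 0.262. The first group was chosen by the study on the 0 dpa arrays and the second on the 10 dpa arrays, so the level of each at that stage is a description.

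The 205 transcripts listed as lower in *Fl* at 10 dpa, a choice made on the end point of this comparison, had a median change of -0.02 in *Fl*. There 21 rose and 25 fell, against 1.83% and 1.08% of all transcripts, and 159 were not called. In *FL* their median change was 2.54, and 148 rose. Expansin-like B1 (AT4G17030.1), of a family that loosens walls, had levels of -0.18, -0.16 and -0.09 at 0 dpa and -0.03, 0.00 and 0.14 at 10 dpa. The groups nearly met, for a change of 0.18 (adjusted p = 0.33, limma), while it rose by 5.74 in *FL*. A second probe set changed by -0.02, against 6.10. Peroxidase 2 (AT5G06720.1) changed by -0.21 against 6.08, the cytoskeletal beta-6 tubulin (AT5G12250.1) by -0.07 against 3.48 and profilin 5 (AT2G19770.1), which binds actin, by 0.50 against 2.95.

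The 8 probe sets used as fibre markers thus divided, with XTH 7 and FASCICLIN-like arabinogalactan 7 rising on 4 of them and expansin-like B1, beta-6 tubulin and profilin 5 under 3-fold on the other 4. Their mean level was -1.01 to -0.953 on the *Fl* arrays of 0 dpa and 2.53 to 2.66 at 10 dpa, against 2.92 to 3.12 in *FL* at 10 dpa. This mean joins opposite patterns and is no measure of fibre. At 10 dpa the first 4 were 2.55 to 5.68 higher in *Fl* than in *FL*, while the other 4 rose in *FL*. No member of the cytoskeleton list (3) or the list of sugar and carbon metabolism (6) was called in *Fl*, with medians of 0.50 and -0.04. In *FL* 3 members of each rose. Among the 9 biotic stress transcripts the receptor-like kinase AT5G01890.1 alone rose in *Fl*, and 8 rose in *FL*. Over all transcripts 1.83% rose in *Fl* and 2.94% in *FL*. All members of these lists were listed for a difference between the lines at 10 dpa, on arrays that this comparison ends with.

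**Figure D4:**
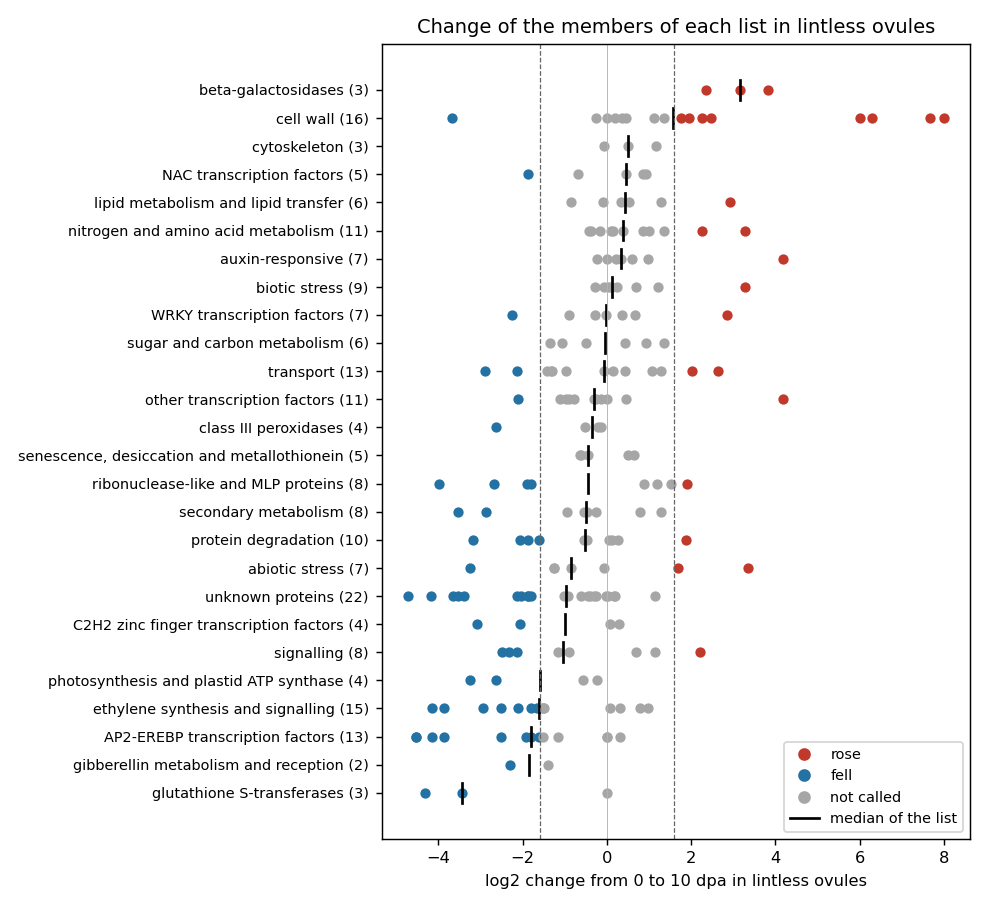
Log2 change from 0 to 10 dpa in lintless ovules (x axis) of the members of each list cut from the study's tables (y axis, number of members in brackets), with rises in red, falls in blue, uncalled members in grey, the list median as a black bar and the 3-fold thresholds as dashed lines. The beta-galactosidase and cell wall lists have the highest medians, 3.16 and 1.57, and single cell wall members reach 7.99. Members of the unknown protein, AP2-EREBP and glutathione S-transferase lists reach furthest left, to -4.71, -4.53 and -4.32.

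By hormone, as the tables assign transcripts, the counts are set beside 1.83% of all transcripts that rose and 1.08% that fell. Of 24 transcripts under ethylene 11 fell and 1 rose in *Fl* (median -1.51), and of 18 under abscisic acid 8 fell and 1 rose (median -1.10). In each of these lists 7 members were listed for a difference between the lines at 0 dpa, on arrays that this comparison uses. SOS3-interacting protein 1 (AT5G58380.1), a kinase under abscisic acid, changed by -1.73, and by -1.52, under 3-fold, without lintless 10 dpa replicate 3. A Rossmann-fold protein (AT3G26770.1) of that list changed by -1.83. Under auxin 7 of 22 rose and 2 fell (median 0.92), among them the 3 XTH 7 probe sets. Salicylic acid had 4 falls and 2 rises among 13, jasmonic acid 2 of each among 7, brassinosteroid 1 fall and 2 rises among 11, gibberellin 2 falls among 7 (the oxygenase AT1G52820.1 at -2.29 and the hydrolase AT5G06570.2 at -1.63), and cytokinin no call among 3, which rose in *FL*. A transcript can stand in several of these lists.

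A set of 4 transcripts fell in *Fl* and rose in *FL*, and none was called the other way. The unknown protein AT5G17350.1 had levels of 1.69, 1.62 and 1.65 in *Fl* at 0 dpa and -0.46, -0.38 and -0.28 at 10 dpa, a change of -2.03. In *FL* it went from -1.69, -1.96 and -1.66 to 0.28, 0.36 and 0.39, a change of 2.11. By 10 dpa the lines had come close, from levels on opposite sides of the median. The other 3 have no homolog in the tables and changed by -1.79, -1.90 and -2.09 in *Fl* and by 2.22, 2.01 and 1.60 in *FL*.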

How the data were processed

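Total RNA of whole ovules was labelled and hybridized to the Affymetrix cotton GeneChip by the authors, who summarised the probes with RMA (robust multi-array average) and deposited log2 values in a single table of 21889 probe sets, 98 of them controls. The filter behind that number is not given in the sources used here. The deposited values of each probe set centre on a median of 0. Groups follow the titles, and a linted array titled 10 dpa whose stage field gives 0 dpa was kept as 10 dpa.

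Here the log2 values were fitted in limma 3.58.1 (R 4.3.3) with a mean for each of the 4 groups and empirical Bayes moderation, and p-values were adjusted by Benjamini-Hochberg over 21791 transcripts. The interaction came from the same fit. The script was tested on simulated data. The 6 lintless arrays limit the precision, and the number of arrays is the only depth known. Named by rule are the 20 homologs with the largest rise and the 20 with the largest fall. The rule adds every DET of a list with the uncalled members of lists described, and 2 unnamed probe sets each way. It further adds up to 15 DETs with an interaction and up to 10 DETs that changed alike in both lines (none qualified). Up to 10 called in opposite directions complete it. Alternatives were other scalings, filters and tests, and each array left out. Columns of the authors' own comparisons were not in the table. The members and lists were chosen with earlier results of these data known.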

Additional observations from a re-analysis of the deposited data

Results flagged for a closer look

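The change from 0 to 10 dpa differed between lintless and linted ovules by 16-fold or more (interaction, limma, adjusted p up to 0.01) for 20 transcripts of the tables that were DETs in *Fl*. They are given here as values, with no explanation. Positive were FASCICLIN-like arabinogalactan 7 (5.30) and a transcript with no homolog (4.44). The negative values of transcription factors were -4.63 and -4.04 for the Integrase-type AT1G19210.1, -4.22 for AT5G51190.1 and -4.06 for ethylene responsive element binding factor 1. Unknown proteins had -5.09 and -4.39 (AT4G29780.1) and -4.14 (AT5G17350.1), and ROTUNDIFOLIA like 12 had -4.02. Enzymes and transporters had -4.80 (glutathione S-transferase TAU 8), -4.50 (asparagine synthase 1), -4.44 (zinc induced facilitator 1) and -4.12 (terpene synthase 21). The DnaJ-domain chaperone had -4.74, the RING finger AT5G59550.1 had -4.62 and the Hs1pro-1 protein had -4.46. Transcripts with no homolog had -4.34, -4.33 and -4.01. The last of these and a further pair, at -3.91 and -3.69, fell in *Fl* and rose in *FL*, as did AT5G17350.1.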

How the results depend on the processing

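The balance of rises and falls depended on the processing. Against 399 rises and 235 falls in lintless ovules, centring on the hybridization controls gave 318 and 324. Among linted ovules at any fold, 3822 rises and 5198 falls turned to mostly rises with that centring, and the interaction at any fold, 1263 positive and 1432 negative, turned to slightly more positive values without shared probe sets, as given next. No single listed transcript that was called changed direction, and 262 to 270 of the 270 listed transcripts kept their call under each of the scalings, tests and array omissions tried. For lintless ovules, leaving out 1 lintless array gave 396 to 403 rises and 235 to 242 falls at 3-fold. A further quantile normalization gave 362 falls in lintless ovules, 418 rises in linted ovules and 47 positive interactions. Centring on the hybridization controls gave 1606 rises at any fold in lintless ovules. In linted ovules it gave 105 falls at 3-fold and 6679 rises and 1737 falls at any fold, and for the interaction 9 positive and 591 negative at 3-fold and 72 and 5761 at any fold. Leaving out the probe sets that relatives can share, which tests fewer transcripts, gave 123 rises and 124 falls in lintless ovules at 3-fold (1059 and 1992 at any fold), 207 and 122 in linted ovules (1401 and 2819) and 11 positive and 151 negative interactions (578 and 551). The methods' t-test, with the unpaired fit of the study, gave 2429 rises and 3002 falls in linted ovules at any fold. Apart from the smaller number of probe sets, the cause was not tested.

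Same replicate numbers did not pair the lintless samples, since the deviations of same-numbered arrays correlated at -0.0547, -0.143 and -0.0275. With the replicate number as a block 399 transcripts rose and 235 fell at 3-fold, 2855 and 3632 at any fold, and no call of a named transcript changed. Calls near the threshold moved, as for allene oxide synthase (1.48 after quantile normalization, 1.54 after centring on the controls), AT5G61590.1 (-1.37 without lintless 10 dpa replicate 1, adjusted p = 0.011 with the methods' t-test) and the kinase AT5G58380.1 (-1.52 without lintless 10 dpa replicate 3). The table keeps no brightness, so signal over background is unknown, and 3 arrays a group limit the precision.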
